A study of Mus musculus with 8 samples.

Results

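The genes described here are those named for proteins of the cytosolic ribosome, and they were chosen by name alone. A gene entered when its symbol was Rps or Rpl followed by a number with at most the letter a, l, x or y, or was Rplp0, Rplp1, Rplp2 or Rpsa. Of 48709 genes in the deposited expression table, 82 matched, 32 of the small subunit (Rps) and 50 of the large subunit (Rpl). GENCODE release 21 lists 80 of them as protein-coding and the other 2, Rpl6l and Rps4l, as processed pseudogenes. The naming rule itself uses no measured value. A low-value filter of at least 1 TPM (transcripts per 1000000, a measure of abundance corrected for length) in at least 2 libraries passed 79 of them, out of 13126 genes in all. The 3 left out were Rpl3l, Rpl39l and Rpl10l, for which levels are given without a test. The introns of these genes numbered 323, in 79 genes, of 204362 introns listed in all 8 libraries.

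A ribosome holds 1 copy of nearly every ribosomal protein, and cells adjust the supply of all of them together. Their mRNAs are among the most abundant in a growing cell and mostly begin with a C followed by a run of pyrimidines, the terminal oligopyrimidine tract (TOP), through which mTOR signalling and the protein Larp1 control their translation. The transcription factor Myc raises their transcription, dedicated chaperones guard the newly made proteins, and some members limit their own supply by splicing surplus pre-mRNA into forms that nonsense-mediated decay (NMD) removes. Loss of 1 copy of several of them causes Diamond-Blackfan anaemia, a failure of the bone marrow to make red cells.

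The series holds 8 libraries of polyadenylated mouse RNA in 5 groups, labelled as coming from bone marrow, and the series' title asks how intron retention shapes gene expression as monocytes form. The groups were MDP, the monocyte-dendritic cell progenitor (1 library, genotype given as wild type), cMoP, the common monocyte progenitor (2 libraries, described as floxed on both alleles), Ly6Chi monocytes (2 libraries, also described as floxed), Ly6Clo monocytes (1 library, wild type) and Upf2 knockout monocytes of the Ly6Chi kind (2 libraries), Upf2 being a core NMD factor. The first 6 libraries were untreated. The knockout is given only as such, and the Cre line, promoter, strain, age and number of mice per library are not given in the labels. The source names give bone marrow and the growth note gives primary cells, whereas the cell type tag reads monocytic cell line. Because the labels describe cMoP and Ly6Chi controls as floxed but neither MDP nor Ly6Clo, stage and genetic background cannot be told apart where MDP or Ly6Clo is compared. Whether replicates are separate animals is not stated, and the p-values reflect the spread of these libraries alone, which may be technical.

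Spliced reads in the intron tables totalled 34094665 to 43771693 per library. Upf2 itself stood between 18.2 and 23.1 TPM in all 8 libraries, and at 20.4 and 22.5 TPM in the knockout. Reads spliced from exon 2 to exon 3 of Upf2, the junction the labels' primers target, numbered 10 and 13 in the knockout and 16 to 59 in the other 6 libraries. Kit, Flt3 and Cd34 summed to 702 TPM in MDP, 152 to 244 in cMoP and 8.63 to 16.7 in the 5 monocyte libraries. The granule genes Mpo, Elane, Prtn3 and Ms4a3 summed to 22205 and 23717 TPM in cMoP and to 475 and 581 in Ly6Chi. The Ly6Clo markers Nr4a1, Cx3cr1, Ace, Spn and Treml4 summed to 3702 TPM in Ly6Clo and to at most 608 elsewhere. In these bulk libraries, fewer cells of a type and less RNA per cell cannot be told apart. TPM is a share of a fixed total, so a fall of the ribosomal protein mRNAs and a rise of all others cannot be told apart either.

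Ribosomal protein mRNAs took up a larger share of all TPM in the progenitors than in the monocytes. Their summed TPM was 21.6% of all TPM in MDP, 21.3% and 22.2% in the cMoP replicates, 12.8% and 13.4% in the Ly6Chi controls, 13.6% in Ly6Clo, and 17.5% and 15.3% with Upf2 knocked out. All 3 progenitor libraries stood above all 5 monocyte libraries, and both knockout libraries above both control Ly6Chi libraries. The mean was 21.8% ± 0.631 (SD, n = 2) in cMoP and 13.1% ± 0.426 (SD, n = 2) in Ly6Chi, a ratio of 0.603 (exact permutation test, two-sided, p = 0.333, the smallest that 2 against 2 allows). In the knockout the mean was 16.4% ± 1.55 (SD, n = 2), 1.25 times the Ly6Chi mean (exact permutation test, two-sided, p = 0.333). Of the 100 most abundant genes of a library, 62 or 63 were ribosomal protein genes in the progenitors, 39 and 40 in the Ly6Chi controls, 43 in Ly6Clo, and 48 and 43 with Upf2 knocked out. The small-subunit sum was 0.821 to 0.867 of the large-subunit sum in the 7 libraries other than Ly6Clo, where it was 0.933. Pseudogene entries named after these genes, 274 in number, added 1.69% to 2.40% of their summed TPM.

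**Figure D1:**
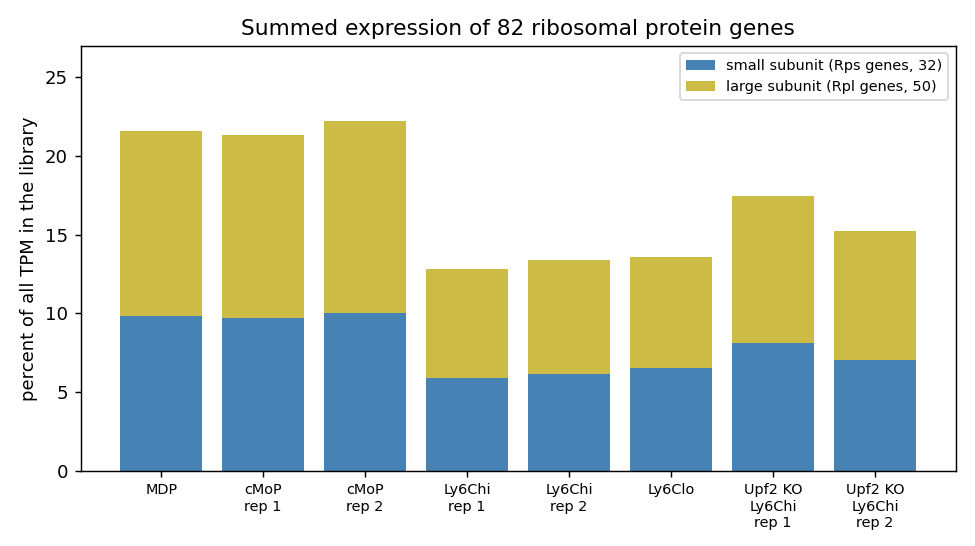
Summed TPM of the 82 ribosomal protein genes in each of the 8 libraries, as percent of all TPM, stacked as small-subunit and large-subunit genes. The 3 progenitor libraries stand between 21.3% and 22.2%, the control monocytes between 12.8% and 13.6%, and the 2 knockout libraries at 17.5% and 15.3%.

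Between cMoP and Ly6Chi monocytes nearly every member fell. In limma's test, adjusted over all genes, 77 of 79 were lower and 0 higher in Ly6Chi, against 23.3% of all genes lower and 32.3% higher. The median change was -0.75 on the log2(TPM + 1) scale, while the median of all genes was 0.19. In all 79, both Ly6Chi libraries lay below both cMoP libraries, which held for 34.2% of all genes. Centring each library on its median gene also left 77 lower, with a median of -1.08, whereas quantile normalisation left 54 lower and 2 higher, with a median of -0.42 and 4 members above zero. Without Ly6Chi replicate 1 the count fell to 46, and without replicate 2 to 53, each time with 0 higher. The small subunit had a median of -0.68 over 32 members and the large subunit of -0.76 over 47. Members that carry a small nucleolar RNA gene in an intron, 29 of the tested, had a median of -0.73, and the other 50 of -0.75. Summed TPM of the cycling-cell markers Mki67, Top2a, Ccnb1, Mcm2, Mcm6 and Pcna moved the same way, from 1470 and 1483 in cMoP to 921 and 971 in Ly6Chi. Lean of spliced reads to the 3′ end, the median log2 ratio of reads at the last to the first intron over 6278 genes, was 0.77 and 1.06 in cMoP and 0.57 and 0.59 in Ly6Chi. T and NK cell markers summed to 250 and 281 TPM in cMoP and to 6.22 and 5.25 in Ly6Chi. Of these 5 markers, Cd3e and Trac were at 0 in cMoP replicate 2, and Klrb1c in Ly6Chi replicate 2. Neutrophil markers (392 and 290 against 1295 and 1685) and macrophage markers (15.7 and 5.75 against 134 and 130) went the other way. The part of any of these in the result was not tested.

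The steepest fall was that of Rps2 (ENSMUSG00000044533, mm10 chr17:24718116-24721929), a small-subunit protein beside the mRNA entry channel. It stood at 3886 TPM in MDP, 4186 and 4962 in the cMoP libraries, 1532 and 1548 in the Ly6Chi controls, 1199 in Ly6Clo, and 2345 and 2034 with Upf2 knocked out. The cMoP and Ly6Chi libraries did not overlap, and cMoP replicate 2 was the highest of all. The log2 change from cMoP to Ly6Chi was -1.56 ± 0.13 (SE, limma adjusted p = 0.000598). Rpl12, which sits at the base of the ribosomal stalk, had 2603 TPM in MDP, 2785 and 2897 in the cMoP libraries, 1082 and 1084 in the Ly6Chi controls, 967 in Ly6Clo, and 1532 and 1386 with Upf2 knocked out. Its log2 change was -1.39 ± 0.10, again with no overlap. Rpl14 of the large subunit changed by -1.35 ± 0.13, Rps27l by -1.29 ± 0.24 and the X-linked Rpl36a by -1.29 ± 0.12. In Rps27l the cMoP replicates themselves were far apart, at 416 and 684 TPM, against 223 and 213 in Ly6Chi.

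At the other end, 2 small-subunit members did not pass the test. Rps27, a zinc-finger protein (ENSMUSG00000090733, mm10 chr3:90212522-90213651), stood at 3958 TPM in MDP, 3766 and 3666 in the cMoP libraries, 3493 and 3494 in the Ly6Chi controls, 6021 in Ly6Clo, and 4477 and 3798 with Upf2 knocked out. Its change from cMoP to Ly6Chi was -0.09 ± 0.12, and the single Ly6Clo library was the highest of the 8. Rps9, which helps proofread the codon match, stood at 3356, then 3371 and 3425, 3023 and 3313, 2895, and 4087 and 3608 TPM in the same order, with a change of -0.10 ± 0.11. Among the smallest falls that passed were those of Rpl10 (-0.33 ± 0.11, limma adjusted p = 0.0447), a protein that joins the large subunit late in its assembly, and Rps29 (-0.43 ± 0.11). Under quantile normalisation Rps27 and Rps9 were higher in Ly6Chi, at 0.31 each, and Rpl10 stood at 0.0526 and was not called. Rpl35a changed by -0.45 ± 0.11.

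**Figure D2:**
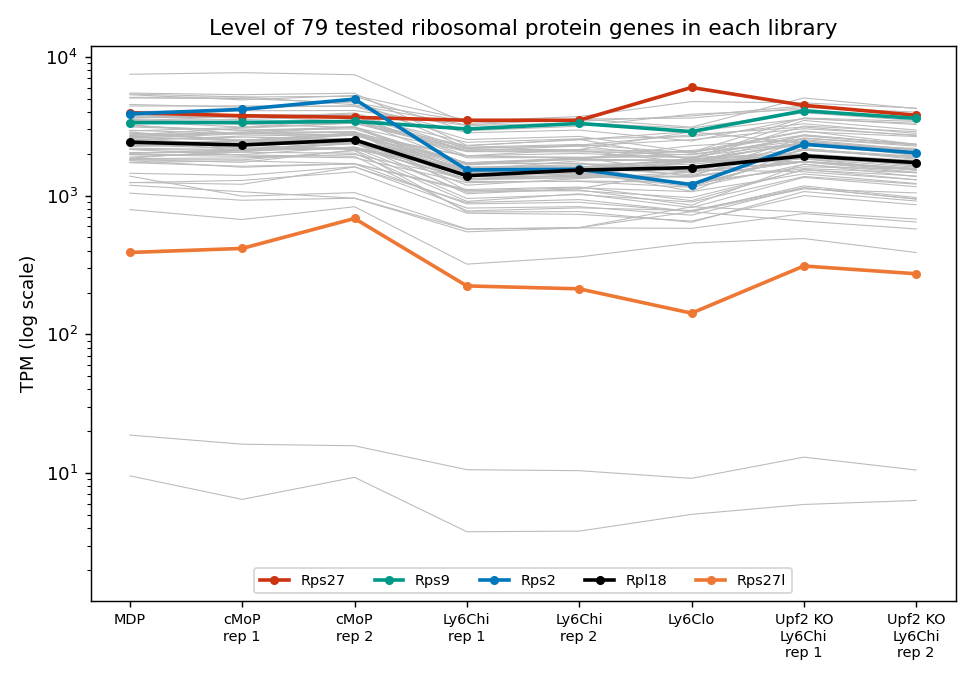
TPM on a log scale of the 79 tested ribosomal protein genes (grey lines) in the 8 libraries, with 5 genes coloured. Rps2 falls from 4186 and 4962 in cMoP to 1532 and 1548 in Ly6Chi, Rps27 rises to 6021 in Ly6Clo, Rps9 stays between 2895 and 4087, Rps27l ends at 142 in Ly6Clo, and Rpl18 keeps the most even share of the group.

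Another count from the same libraries, reads spliced at the genes' introns scaled to the library's spliced total, moved the same way. Members held 11.2% of all spliced reads in MDP, 11.6% and 12.5% in the cMoP libraries, 5.91% and 6.46% in the Ly6Chi controls, 6.40% in Ly6Clo, and 9.66% and 7.74% with Upf2 knocked out. In all 77 members with enough spliced reads, both Ly6Chi libraries were below both cMoP libraries (40.3% of the 9418 genes measured), with a median log2 change of -0.98 and a range from -1.83 to -0.32. The median of all genes was 0.06. Across these 77 genes, which share libraries and depth and are not independent, the change in spliced reads and the change in TPM had a Pearson r of 0.989.

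Ordered by role, all 3 proteins of the acidic stalk, which recruits translation factors, fell in Ly6Chi in limma's test. Rplp1 went from 5339 and 5474 TPM in cMoP to 2302 and 2524 in Ly6Chi (log2 -1.16 ± 0.11), Rplp2 changed by -0.75 ± 0.13, and Rplp0, the scaffold that holds them, by -0.56 ± 0.12. Rpl5 and Rpl11, which with the ribosomal 5S RNA bind Mdm2 and hold back p53 breakdown, changed by -0.80 ± 0.12 and -0.89 ± 0.13. All 11 Diamond-Blackfan anaemia genes on the list fell, with a median of -0.78, from Rps26 (-0.96) to Rpl35a (-0.45). The 4 X-linked members fell too, and Rpl36a (-1.29) and Rpl10 (-0.33) marked the ends of that list. The 4 members with textbook self-limiting splicing fell with a median of -1.01: Rpl12, Rpl10a (-1.07 ± 0.12), Rpl3 (-0.95 ± 0.09) and Rps13 (-0.63 ± 0.12). These counts stand beside 23.3% of all genes called lower, and every list was chosen with earlier results of these data known.

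**Figure D3:**
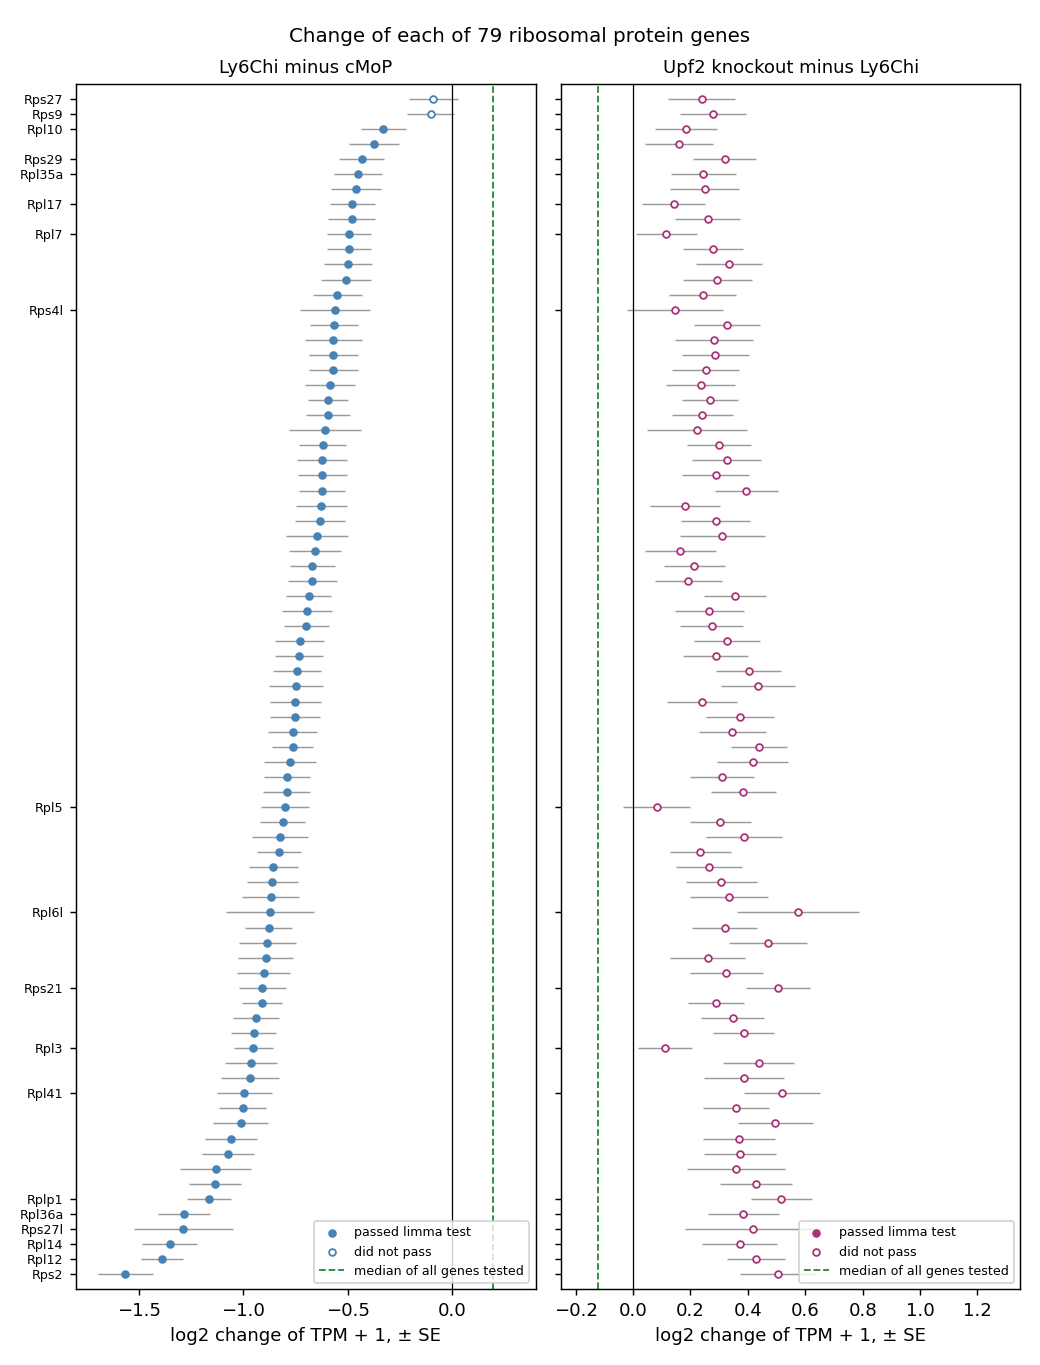
Log2 change of TPM + 1 with its SE for each of the 79 tested members, Ly6Chi minus cMoP on the left and Upf2 knockout minus Ly6Chi on the right, in the order of the left panel, with some genes labelled. On the left 77 members pass limma's test, all lower, from Rps2 at -1.56, and the dashed median of all genes is at 0.19. On the right none passes, every point is above zero, and the dashed line is at -0.12.

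How members moved relative to each other was followed by each member's share of the summed TPM. Over the 5 groups the SD of the log2 share had a median of 0.15, and it was lowest for Rpl18 (0.03), Rps7 (0.05) and Rpl23 (0.05). It was highest for Rps27 (0.55), Rps2 (0.49), Rps27l (0.44), Rpl14 (0.39), Rpl12 (0.37) and Rpl36a (0.36). Rps27 made up 1.83% of the summed TPM in MDP, 1.77% and 1.65% in the cMoP libraries, 2.73% and 2.60% in the Ly6Chi controls, 4.44% in Ly6Clo, and 2.56% and 2.49% with Upf2 knocked out. Its share was lowest in the progenitors, and the replicates of each group lay within 0.0979 of each other on the log2 scale. Over the 8 libraries the log2 level of a member and the mean of the other members had a median Pearson r of 0.966, and 66 of 79 were above 0.9. Among the lowest were Rps27 (-0.23), Rps9 (0.41) and Rps29 (0.73). These r describe 8 libraries of 5 groups and carry no test.

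Rps27 and its paralogue Rps27l, whose proteins are nearly identical and of which Rps27l is known as a p53 target, moved apart. Rps27 exceeded Rps27l by 10.2 times in MDP, 9.05 and 5.36 times in the cMoP libraries, 15.6 and 16.4 times in the Ly6Chi controls, 42.4 times in Ly6Clo, and 14.4 and 13.9 times with Upf2 knocked out. The ratio was thus lowest in progenitors and highest in Ly6Clo. In GENCODE release 21 each has 255 coding bases with the stop codon, of which 61 differ (76.1% identical), and 53 of these are at the third base of a codon. The coding sequences of Rps27 (chromosome 3) and Rps27l (chromosome 9) are shown because reads must be told apart by such differences, with capitals at the bases that differ.
Rps27: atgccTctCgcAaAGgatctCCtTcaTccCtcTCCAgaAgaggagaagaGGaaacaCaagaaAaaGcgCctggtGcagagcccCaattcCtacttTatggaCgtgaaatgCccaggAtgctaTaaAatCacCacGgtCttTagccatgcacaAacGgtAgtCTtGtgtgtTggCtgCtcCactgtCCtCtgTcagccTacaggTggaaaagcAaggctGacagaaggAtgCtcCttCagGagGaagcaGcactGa
Rps27l: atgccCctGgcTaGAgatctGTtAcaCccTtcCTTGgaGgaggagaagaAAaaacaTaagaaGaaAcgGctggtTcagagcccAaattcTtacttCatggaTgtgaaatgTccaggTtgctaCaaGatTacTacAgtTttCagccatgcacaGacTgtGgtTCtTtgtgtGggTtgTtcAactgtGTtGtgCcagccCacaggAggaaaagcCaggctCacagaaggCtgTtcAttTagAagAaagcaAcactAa
The differences run through the whole frame, with 10 in the first 30 bases.

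Of the listed paralogues and tissue-restricted forms, Rps27l among them, limma called 6 of the 7 tested lower and 0 higher in Ly6Chi against cMoP, beside 23.3% of all genes lower and 32.3% higher. Rpl36al, the autosomal paralogue of Rpl36a, stood at 807 TPM in MDP, 986 and 1248 in the cMoP libraries, 702 and 737 in the Ly6Chi controls, 490 in Ly6Clo, and 967 and 858 with Upf2 knocked out. Rpl36a exceeded it by 2.67 times in MDP and by 1.10 and 1.11 times in Ly6Chi. Rpl22l1, the paralogue of Rpl22, had 417 TPM in MDP, 445 and 622 in the cMoP libraries, 202 and 192 in the Ly6Chi controls, 118 in Ly6Clo, and 305 and 235 with Upf2 knocked out (log2 -1.41 ± 0.20 from cMoP to Ly6Chi). Rps27rt, a copy of Rps27, was not called there but rose in Ly6Clo from 17.1 and 17.9 TPM in Ly6Chi to 71.3 (log2 1.97 ± 0.18, limma adjusted p = 0.00208), and it stood at 50.6 in MDP. Rpl3l, the muscle form of Rpl3, was at 9.52 TPM in Ly6Clo and at 0.07 to 0.68 TPM in the other 7 libraries. Its spliced reads in Ly6Clo lay almost wholly at its last introns, with 145 and 265 reads, and the 9 introns before them had at most 1 each. Rpl39l ranged from 0.07 to 1.57 TPM, and Rpl10l was listed at 0 in all 8 libraries. Rps4l and Rpl6l, at means of 13 and 6.27 TPM, and Rps27rt share sequence with abundant parent genes, so reads may be split between copies and their values are uncertain.

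At the upper end, Rps12 was the most abundant member, with 7501 TPM in MDP, 7698 and 7441 in the cMoP libraries, 3318 and 3570 in the Ly6Chi controls, 3117 in Ly6Clo, and 5058 and 4242 with Upf2 knocked out. Rps29 followed with 4662 to 5054 TPM in progenitors, 3441 and 3717 in Ly6Chi and 4763 in Ly6Clo, and then Rps24 with 4902 to 5335 in progenitors, 3510 and 3441 in Ly6Chi and 3754 in Ly6Clo. Rps12 was 2.20 times lower in Ly6Chi than in cMoP, more than the other pair.

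The starts of the genes were set beside the changes because the members moved together. RefSeq promoters (GRCm38.p6) were matched for 60 of the 82 symbols, giving 72 of 32851 promoters. The window from 30 bases before to 20 after the annotated start is shown for 8 members. They are the 4 that fell most among those matched and 4 that fell least. Capitals mark the longest run of pyrimidines (C or T), and the first where runs are equally long, as in Rps27l. Rpl35a has 3 such promoters, with longest runs of 4, 13 and 6, and Rps27l has 2, with runs of 9 and 5, and for each the first listed is shown.
Rps2, chr17:24720033-24720082, plus strand: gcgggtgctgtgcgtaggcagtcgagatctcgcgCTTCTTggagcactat
Rpl12, chr2:32961682-32961731, plus strand: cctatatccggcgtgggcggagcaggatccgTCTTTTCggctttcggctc
Rpl14, chr9:120571487-120571536, plus strand: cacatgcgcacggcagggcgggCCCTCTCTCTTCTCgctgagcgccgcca
Rps27l, chr9:66946056-66946105, plus strand: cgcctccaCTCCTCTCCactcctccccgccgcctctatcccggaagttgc
Rpl35a, chr16:33056423-33056472, plus strand: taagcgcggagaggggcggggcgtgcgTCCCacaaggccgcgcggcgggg
Rpl10, chrX:74270786-74270835, plus strand: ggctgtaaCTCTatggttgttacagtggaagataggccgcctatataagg
Rps9, chr7:3704011-3704060, plus strand: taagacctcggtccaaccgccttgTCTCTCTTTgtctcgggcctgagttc
Rps27, chr3:90213629-90213678, minus strand: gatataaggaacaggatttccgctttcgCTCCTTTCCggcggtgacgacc
The run had 9 pyrimidines in Rps9 and Rps27, which were not called, and 6, 7, 14 and 9 in Rps2, Rpl12, Rpl14 and Rps27l, which fell most. A C followed by at least 7 pyrimidines on the gene's own strand was in 45.8% of member windows and 15.9% of all windows of this length, and on the opposite strand in 8.33% and 17.2%. Over the full 300 bases and both strands, CCGGAAG was in 36.1% of member promoters and 8.86% of all, AAGATGGCG in 6.94% and 1.40%, CACGTG in 11.1% and 7.15%, and TATAAA in 8.33% and 13.6%. CCGGAAG and AAGATGGCG can share the letters AAG. The median log2 change from cMoP to Ly6Chi was -0.75 in the 30 members with the tract and -0.75 in the 27 without it, and -0.82 in the 24 with CCGGAAG against -0.70 in the 33 without. A match is a description of the letters, and RefSeq starts need not be those used in these cells.

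From MDP to cMoP, limma called 0 of 79 members, against 3.87% of all genes. Its unadjusted p was under 0.05 in 1 member, against 26.9% of all genes. The median log2 change was 0.01, while all genes had a median of -0.28, and median centring moved the members to 0.39 with 78 of 79 above zero. The ends were Rpl27a, with 1381 TPM in MDP and 991 and 1051 in cMoP (-0.44 ± 0.13, limma adjusted p = 0.127), and Rps27l (0.45 ± 0.29). Against MDP directly, Ly6Chi had 68 members lower and 0 higher, beside 25.6% of all genes lower and 18.2% higher, with a median of -0.75. That count was 24 under median centring, 24 without Ly6Chi replicate 1 and 34 without replicate 2. Rpl36a fell most (-1.43 ± 0.15), from 2151 TPM in MDP to 775 and 816, followed by Rps2 (-1.33 ± 0.16), Rpl12 (-1.26), Rpl27a (-1.25) and Rpl14 (-1.25). The least were Rps9 (-0.08), Rps27 (-0.18), Rpl10 (-0.19), Rpl34 (-0.28) and Rpl35a (-0.29), which were not called. The comparison shares its Ly6Chi libraries with that against cMoP, so the lists are not independent.

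Between Ly6Chi and Ly6Clo monocytes the median of the members moved little. The median log2 change was -0.01, and that of all genes 0.04. Only Rps27 was called in limma's test, higher in Ly6Clo by 0.79 ± 0.14 (adjusted p = 0.0214), beside 5.9% of all genes higher and 7.12% lower. The call held in 9 of 14 settings. It was lost under median centring and without either Ly6Chi replicate, where 0 members were called, with no filter on low values, and under quantile normalisation (0.41). Rps21 (0.52 ± 0.14), Rpl27a (0.51 ± 0.13) and Rpl36 (0.51 ± 0.15) came next and did not pass. Rps21, for one, stood at 1891 TPM in Ly6Clo and at 1298 and 1346 in Ly6Chi. The lowest were Rps27l (-0.61 ± 0.29), Rpl7a (-0.43), Rpl28 (-0.43) and Rplp0 (-0.40), none of which passed. Neutrophil markers summed to 4952 TPM in Ly6Clo and to 1295 and 1685 in Ly6Chi, with none of the 7 at 0, and macrophage markers to 572 against 134 and 130. The part of such cells in these values was not tested.

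In the Upf2 knockout the members stood slightly higher as a body, yet none passed the test. The median log2 change from control Ly6Chi was 0.31, with a median of -0.12 over all genes. The members' median was 0.14 under quantile normalisation and 0.51 after median centring. All 79 changes were above zero, as were 36.7% of those of all genes, and 68 of 79 were under quantile normalisation. In limma's test 0 members were called, with a smallest adjusted p of 0.336, beside 0.00762% of all genes (1 gene), and 45 members had an unadjusted p under 0.05 (14.6% of all genes). That last count of members was 16 under quantile normalisation (20.8% of all genes) and 21 with the replicate block (10.1%). It fell without either Ly6Chi replicate and without knockout replicate 1, and it rose without knockout replicate 2. Without Ly6Chi replicate 1 the share of members was close to that of all genes. Both knockout libraries lay above both control libraries in 77 members, against 22.8% of all genes. Without knockout replicate 1 the median was 0.22, and without replicate 2 it was 0.41. Spliced reads scaled in that way were higher in both knockout libraries in 77 of 77 members (36.3% of all genes), with a median of 0.50. The control libraries are the same in both comparisons of Ly6Chi, with cMoP and with the knockout, so a low value in them would move both. Lean to the 3′ end over 6278 genes was 0.98 and 0.74 in the knockout and 0.57 and 0.59 in the controls, and its part in these values was not tested.

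Rpl6l (0.57 ± 0.21), a processed pseudogene in GENCODE that shares sequence with Rpl6, had the largest value, at 5.93 and 6.34 TPM in the knockout and 3.77 and 3.81 in Ly6Chi. Rpl41, a very short peptide between the subunits, stood at 3480 and 2969 TPM in the knockout and 2214 and 2275 in Ly6Chi (0.52 ± 0.13). Rplp1 (0.52 ± 0.11), Rps21 (0.50 ± 0.11) and Rps2 (0.50 ± 0.13) were next. The smallest were Rpl5 (0.08 ± 0.12), Rpl3 (0.11 ± 0.09), Rpl7 (0.12 ± 0.11), Rpl17 (0.14 ± 0.11) and the pseudogene Rps4l (0.15 ± 0.17). Rpl5, at 654 and 575 TPM in the knockout and 572 and 587 in Ly6Chi, overlapped between the groups. Of the members with self-limiting splicing through NMD, Rpl12 had 0.43 ± 0.10, Rpl10a 0.37 ± 0.12, Rps13 0.29 ± 0.12 and Rpl3 0.11 ± 0.09, and none passed limma's test.

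Among ribosomal proteins that the naming rule leaves out, 3 of 4 tested fell from cMoP to Ly6Chi, among them Rps3a1 (log2 -0.78 ± 0.10) and Rack1 (-0.71 ± 0.11), and Fau (0.12 ± 0.11) was not called. Fau, whose product is cut into a ubiquitin-like protein and a small-subunit protein, rose in Ly6Clo from 2190 and 2455 TPM in Ly6Chi to 3461 (0.58 ± 0.14, limma adjusted p = 0.0498). Of 16 other TOP mRNAs, 8 fell and 1 rose in Ly6Chi against cMoP, beside 23.3% of all genes lower and 32.3% higher. Npm1, a nucleolar chaperone, fell most (-2.20 ± 0.26), from 1719 and 3050 TPM to 514 and 479, and Tpt1 rose (0.40 ± 0.12), from 4337 and 3955 TPM to 5296 and 5645. Hnrnpa1 was the only one called in Ly6Clo against Ly6Chi (-0.88 ± 0.16). In the knockout 0 of the 16 were called by limma, with a median of 0.11.

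The regulators and assembly factors that follow are counted beside the same 23.3% of all genes lower and 32.3% higher in Ly6Chi against cMoP. Of 7 tested genes of the Myc network, Myc fell from 116 and 148 TPM in cMoP to 7.39 and 6.68 in Ly6Chi (log2 -4.04 ± 0.24, limma adjusted p = 0.000247), and its antagonists Mxd1 and Mnt rose. MDP held 287 TPM of Myc, Ly6Clo 14, and the knockout 10.1 and 15.9, so all 3 progenitor libraries were above all 5 monocyte libraries. Of 15 genes of the mTOR and Larp1 branch, Tsc1 (1.00 ± 0.31) and Sesn2 rose and Larp1 (-0.71 ± 0.18) and Akt1s1 fell in Ly6Chi. Ddit4, an mTOR inhibitor induced by stress, rose in Ly6Clo to 64.2 TPM from 2.64 and 2.24 in Ly6Chi (4.25 ± 0.25, limma adjusted p = 0.0006). All 11 tested genes on the list of ribosomal protein chaperones and assembly factors fell from cMoP to Ly6Chi, with a median of -1.65. They ran from Grwd1, the chaperone of Rpl3 (-3.05 ± 0.31, 39.4 and 76.3 TPM to 5.69 and 5.79), to Aamp (-0.38 ± 0.11). Of 11 quality control and recycling factors 6 fell, led by Abce1 (-1.38 ± 0.17), which splits used ribosomes, and 1, Ascc3 (0.78 ± 0.19), rose. In the knockout limma called 0 genes on any of these lists, and in Ly6Clo only Ddit4, Hnrnpa1, Fau and Rps27rt.

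The 10 other genes whose log2 level followed the mean of the members most closely over the 8 libraries had Pearson r from 0.984 to 0.995. They were Nxt1 (0.995), Gm7536 (0.994), Gm10076 (0.991), Rps3a1 (0.989), Trmt61b (0.989), Rnaseh2a (0.986), Imp3 (0.985), Wdr83os (0.985), Cox20 (0.984) and Ift22 (0.984). Nxt1 stood at 90.9 TPM in MDP, 86.1 and 98.7 in the cMoP libraries, 40.8 and 43.1 in the Ly6Chi controls, 38.5 in Ly6Clo, and 59.6 and 50.7 with Upf2 knocked out.

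Coverage of the tested introns of these genes was low beside their spliced reads in every library. The member introns of highest retention ratio, described below, were not among those tested. Of the 323 member introns, 204 were unmarked for overlap with a known exon or an antisense gene, and 188 in 53 genes had enough reads for the test, of 48132 introns in all. Per 100 spliced reads, reads across an exon-intron boundary of these introns numbered 3.21 in MDP, 3.32 and 3.33 in the cMoP libraries, 3.13 and 3.13 in the Ly6Chi controls, 3.10 in Ly6Clo, and 3.06 and 3.11 with Upf2 knocked out. Over all tested introns the same measure was 7.02, then 6.45 and 4.44, 7.33 and 7.28, 8.76, and 5.86 and 6.26. Members thus stayed within 3.06 to 3.33 while all introns ranged from 4.44 to 8.76. Much of the members' value came from 3 introns, in Rpl11, Rpl26 and Rps3, with at least 20 boundary reads per 100 spliced reads in every library, as 4.73% of all tested introns had. In that of Rpl11 (mm10 chr4:136051717-136052566) the 8 libraries had 99.8 to 101 per 100, but 7980 to 23198 reads lay at the left end and 3 to 23 at the right, with 3 to 10 reads spliced exactly there and a retention ratio of at most 0.00159. Without the 3 introns, a choice made after their values were seen, the members' measure ran from 1.27 in Ly6Clo, and 1.28 and 1.33 with Upf2 knocked out, to 1.45 in MDP and 1.57 in cMoP replicate 1. Both Ly6Chi controls lay between the knockout and MDP, and cMoP replicate 2 between MDP and replicate 1. The deposited retention ratio, coverage of the intron divided by itself plus the spliced reads, reached 0.1 in 0 of 188 member introns in each library. It did so in 2.07% to 11% of all tested introns. The upper Wilson 95% limit for the members, 2.0%, takes introns as independent, which those of the same gene are not. The median ratio was 0.00101 to 0.00246 in members and 0.00355 to 0.0152 in all. The difference of the members' mean boundary reads per 100 spliced reads was -0.202 between Ly6Chi and cMoP and -0.0401 between knockout and Ly6Chi, and -0.185 and -0.0431 without the 3 introns (exact permutation test, two-sided, p = 0.333 each).

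**Figure D4:**
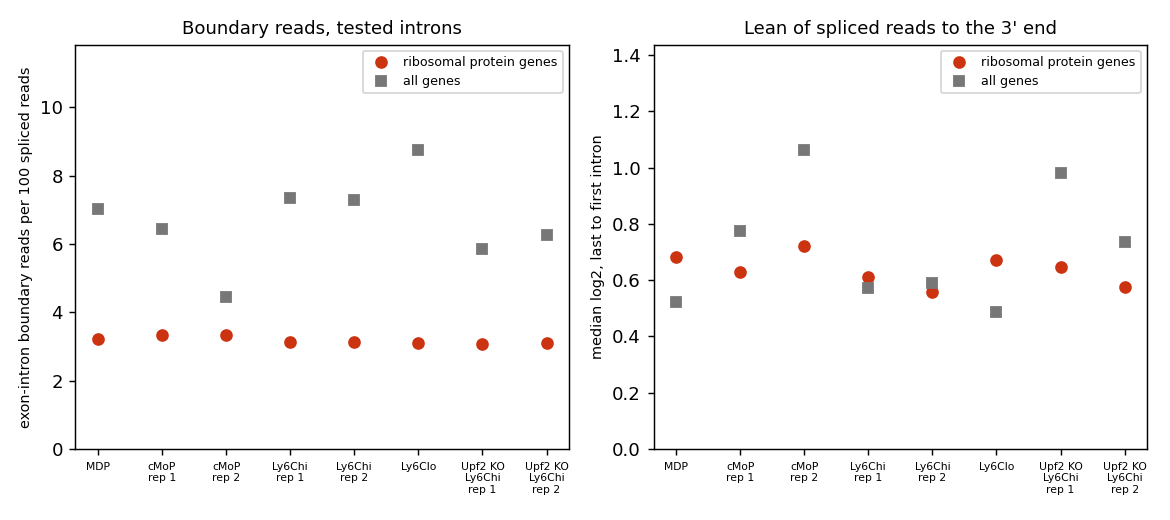
Left, exon-intron boundary reads per 100 spliced reads in each library, over the 188 tested introns of ribosomal protein genes and over all tested introns. Right, the median log2 ratio of spliced reads at the last to the first intron, over 40 ribosomal protein genes and 6278 genes, a measure of lean to the 3′ end. Members stay between 3.06 and 3.33 on the left and between 0.56 and 0.72 on the right, where all genes range from 0.49 to 1.06.

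Tested intron by intron with edgeR's quasi-likelihood test, 1 member intron was called in Ly6Chi against cMoP, beside 0.0145% of all introns. It is intron 1 of the transcript Rpl21-202, in the 5′ untranslated region (mm10 chr5:146833567-146834183). Boundary reads there numbered 128 in MDP, 121 and 136 in the cMoP libraries, 15 and 16 in the Ly6Chi controls, 21 in Ly6Clo, and 17 and 16 with Upf2 knocked out, or 1.39, then 1.12 and 1.22, 0.25 and 0.23, 0.39, and 0.19 and 0.24 per 100 spliced reads. The progenitor libraries stood above all monocyte libraries. The log2 change was -2.27 ± 0.28 (edgeR adjusted p = 0.0424), and the call was lost in most alternatives, among them leaving out any Ly6Chi or knockout library. Most spliced reads counted there belonged to another junction with the same acceptor. Reads spliced exactly at this intron were on average 1.02% of them in cMoP and 0.174% in Ly6Chi. The change thus does not measure retention against the intron's own splicing. Rplp0 intron 2 (-1.59 ± 0.30, edgeR adjusted p = 0.348), with 42 and 44 boundary reads in cMoP and 9 and 7 in Ly6Chi, was among the larger changes that were not called. After scaling boundary and spliced reads apart, 18 member introns were lower, beside 0.239% of all introns, and in Ly6Chi against MDP 1 was lower, beside 0.0561%.

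The other comparisons gave 0 called member introns in edgeR's test. Of all introns 0.0% were called between cMoP and MDP, 0.0% between Ly6Clo and Ly6Chi, 0.00208% between knockout and Ly6Chi, and 0.00623% between Ly6Chi and MDP. At an unadjusted p under 0.05 there were 27 of 188 member introns between cMoP and MDP (14.4%, against 8.35% of all introns). There were 37 between Ly6Clo and Ly6Chi (19.7% against 4.97%), 16 between knockout and Ly6Chi (8.51% against 6.94%), and 56 between Ly6Chi and MDP (29.8% against 3.82%). These shares moved with the method. In DESeq2, another test of counts, they were 9.04% against 2.85% between cMoP and MDP and 2.13% against 2.12% between Ly6Clo and Ly6Chi. For the knockout DESeq2 gave 0.532% against 2.52%, and between Ly6Chi and MDP 13.3% against 1.75%. With the smaller boundary count doubled, they were 2.66% against 3.11% between cMoP and MDP and 10.1% against 1.36% between Ly6Chi and MDP. The median log2 change of member introns was -0.24 in Ly6Chi against cMoP, where all introns had 0.38, and -0.09 in the knockout, where all introns had -0.32. With TMM scaling of boundary and spliced reads apart the medians were -0.69 against -0.01, and in the knockout 0.25 against 0.01, so the sign there turned with the scaling. Rps24 intron 2, among the higher values in the knockout (0.86 ± 0.39, edgeR adjusted p = 0.728), had 12 and 10 boundary reads there and 5 and 4 in Ly6Chi, and did not pass.

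In the 4 members with self-limiting splicing, no intron reached a retention ratio of 0.1 in any library. The highest was 0.0688, in intron 1 of Rpl10a in cMoP replicate 1. That intron (chr17:28328619-28328810) had a ratio of 0.0476 in MDP, 0.0688 and 0.0665 in the cMoP libraries, 0.0388 and 0.0389 in the Ly6Chi controls, 0.0387 in Ly6Clo, and 0.0291 and 0.0276 with Upf2 knocked out. The progenitors were highest and the knockout lowest. It lies near an antisense gene by the knockout tables' mark and was not tested.

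The 8 member introns of highest mean ratio were all marked as overlapping a known exon or lying near an antisense gene. They were intron 1 of Rpl10 (chrX:74270875-74270978, mean ratio 0.801), of Rpl41 (0.420), of Rps2 (0.383), of Rpl27 (0.133), of Rps27a (0.0468), of Rpl10a (0.0445) and of Rpl7a (0.0395), and intron 2 of Rpl41 (0.0593). Rpl27 intron 1, in the 5′ untranslated region (chr11:101442457-101442722), had ratios of 0.188 in MDP, 0.207 and 0.278 in the cMoP libraries, 0.0792 and 0.0831 in the Ly6Chi controls, 0.0562 in Ly6Clo, and 0.0858 and 0.0902 with Upf2 knocked out. All progenitor libraries were above all monocyte libraries. Of the tested introns, intron 1 of Rpl6 was highest (mean ratio 0.0378), followed by intron 1 of Rpl8 (0.0172) and intron 1 of Rpl22 (0.0129).

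The MDP and Ly6Clo libraries stood together against the other 6 in many member introns. Boundary reads per spliced read were higher in both than in all 6 others in 30 of 188 tested member introns and lower in both in another 30, together 31.9%. Over all tested introns the shares were 13% and 3.32%, together 16.3%. In intron 3 of Rps9, boundary reads per 100 spliced reads were 1.80 in MDP and 1.90 in Ly6Clo and 3.30 to 3.59 in the other 6. Most of these reads lay at the left end, 302 against 52 at the right in MDP and 264 against 36 in Ly6Clo. In the deposited retention ratio of that intron, MDP (0.00289) lay within the range of the other 6 (0.00233 to 0.00406). Ly6Clo (0.00210) lay below that range. In TPM the pattern was rare among members, with 1 of 79 beyond the others in both libraries and 13.6% of all genes. The comparison was added after these values were seen. Both libraries lack the floxed description and both are single libraries, so stage, genotype and any difference in handling cannot be told apart.

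A few minor splice junctions of these genes were followed over the libraries. They were picked after their values had been seen, as junctions with at least 300 spliced reads at the fuller end in every library and a share of at least 1% in some library and at most 50%. The rule left 9 junctions in 8 genes out of 303 member introns with enough reads. The share is the reads spliced exactly there over the reads spliced at the fuller end, and it has no test. Rpl38 and Rpl21 reached 1% in progenitor libraries only, and Rps24 in MDP and Ly6Clo only. That these junctions stood higher there follows in part from the rule that picked them. From cMoP to Ly6Chi, 6 of the 9 were lower in both libraries and 1 was higher, while of the 668 junctions of all genes under the same rule 31.0% were lower and 26.5% higher. The 6 included Rpl38 and Rpl21, which the rule admitted through progenitor libraries only. They also included both junctions of Rps27l, which flank the same exon, so the 6 are not independent.

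In Rpl34, intron 1 of Rpl34-201 in the 5′ untranslated region (chr3:130729303-130730120) took 7.35% of reads at its acceptor in MDP, 6.98% and 12.4% in the cMoP libraries, 2.41% and 2.48% in the Ly6Chi controls, 1.59% in Ly6Clo, and 2.16% and 2.59% with Upf2 knocked out. The 95% Wilson intervals of the lowest progenitor value (6.40% to 7.60%) and the highest monocyte value (2.18% to 3.09%) did not meet, counting error only. In Rpl31, Rpl38 and Rpl21 the minor junction shared the acceptor of the principal first intron and had a donor 72, 59 and 395 bases away. Rpl38 had 2.14% in MDP, 1.41% and 2.84% in the cMoP libraries, 0.186% and 0.0678% in the Ly6Chi controls, 0.165% in Ly6Clo, and 0.357% and 0.180% with Upf2 knocked out. Rpl31 had 2.99% to 4.93% in progenitors and 0.872% to 1.48% in monocytes, and Rpl21 0.619% to 1.42% and 0.0903% to 0.218%. In Rpl34, Rpl31, Rpl38 and Rpl21 the progenitor libraries thus stood above the monocyte libraries without overlap. How often junctions of all genes did so was not counted, so the separations only describe these junctions. Rpl38 and Rpl21 had passed the rule through progenitor libraries only, so their separation is no finding apart from it. The Rpl21 junction is that of the intron called in edgeR's test, where most spliced reads counted were those of the principal junction.

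Rps9 moved the other way. The junction from the donor of intron 4 to an acceptor 643 bases from the principal one took 1.51% in MDP, 2.0% and 2.12% in the cMoP libraries, 3.15% and 3.48% in the Ly6Chi controls, 1.64% in Ly6Clo, and 3.88% and 3.81% with Upf2 knocked out. Ly6Chi and knockout stood above cMoP, while MDP and Ly6Clo were lowest. In Rps24, reads joined exon 4 to a 20-base exon (chr14:24495430-24495449) that lies before the principal last exon. This took 2.56% of reads at the donor in MDP, 0.269% and 0.222% in the cMoP libraries, 0.210% and 0.251% in the Ly6Chi controls, 1.51% in Ly6Clo, and 0.216% and 0.218% with Upf2 knocked out. MDP (95% Wilson interval 2.33% to 2.82%) and Ly6Clo (1.29% to 1.77%) were apart from the rest, whose intervals ended at or below 0.376%. The junction had passed the rule through these libraries only, so their separation is no finding apart from it. The last 30 bases of the exon before and the 20-base exon (capitals), from the GENCODE transcript Rps24-202, show that the small exon opens with the stop codon TGA.
Rps24: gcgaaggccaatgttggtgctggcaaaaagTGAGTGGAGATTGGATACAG
The first intron of Rpl41-203, also in the 5′ untranslated region (14.7% to 22.5%), and the 2 junctions of Rps27l (0.800% to 2.09%) showed no such separation of stages.

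**Figure D5:**
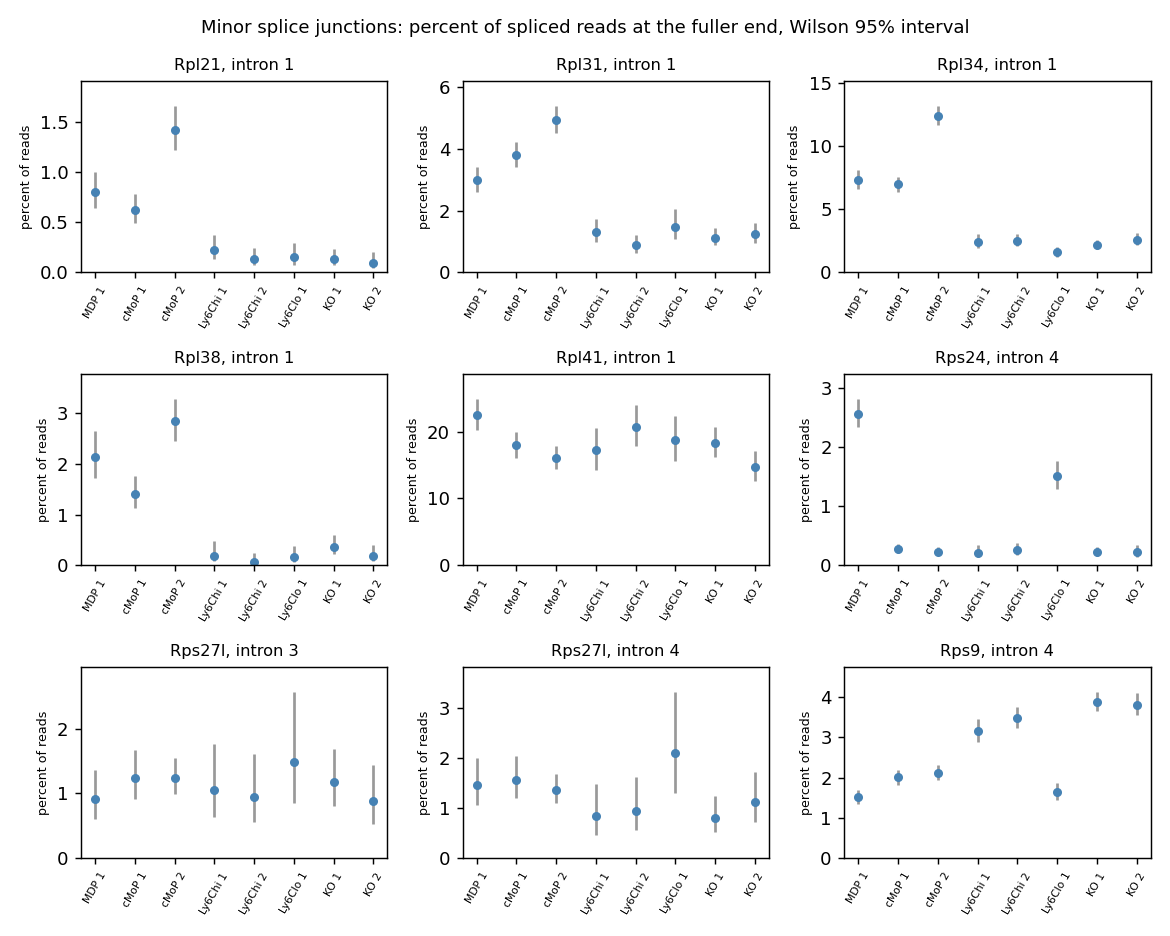
Percent of spliced reads at the fuller end that used each of the 9 minor junctions, per library, with 95% Wilson intervals (counting error only). Rpl34, Rpl31, Rpl38 and Rpl21 are higher in the 3 progenitor libraries, and how often junctions of all genes were so was not counted. Rps9 is highest in Ly6Chi and the knockout at 3.15% to 3.88%, and Rps24 is high only in MDP (2.56%) and Ly6Clo (1.51%). The rule picked Rpl38 and Rpl21 through progenitor libraries only, and Rps24 through MDP and Ly6Clo only.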

How the data were processed

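The authors listed FastQC, Trimmomatic, STAR 2.5.2a and RSEM, with mm10 beside hg38, per the submitters' processing notes. Strand-specific poly(A) libraries were read as 100-base pairs, per the labels' protocols. The deposited expression table is named for FPKM, but its columns sum to 1000000 (999999 in Ly6Chi replicate 1), so its values were taken as TPM. The program behind the authors' intron tables is not given in the labels or file headers. Their deposited counts are reads across each exon-intron boundary and reads spliced at each end. The deposited signal is a trimmed mean coverage of the intron, and the deposited fraction is the retention ratio. No per-sample column was left unmapped. Only the knockout tables mark antisense genes, and introns marked there or as overlapping a known exon were left out of tests.

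Expression was tested with limma 3.58.1 (trend) on log2(TPM + 1), a scale that understates changes of low genes, and retention with edgeR 4.0.16 (quasi-likelihood) on boundary reads relative to the larger spliced count, in R 4.3.3. An intron needed at least 20 reads in every library and 20 boundary reads over all libraries. Each fit used all 8 libraries, with 3 residual degrees of freedom. MDP and Ly6Clo, with 1 library each, were assumed to vary like the other groups. The Benjamini-Hochberg method was applied over all genes or introns at a threshold of 0.05. Both tests were tested on simulated data. In each of 5 comparisons the named genes were the 5 members highest and lowest by log2 change, those of the small lists, the highest and lowest in TPM, those filtered out, and the extremes of each list, of which some are not reported here. Named introns were the 3 highest and lowest by change, those called, and the 8 of highest ratio. The symbols Gnb2l1, Gcn1, Znf598 and Bxdc1 on the lists had no entry of that name in the table. The members and lists were chosen with earlier results of these data known. Intron positions were placed on GENCODE mouse release 21. Same-numbered replicates did not pair (correlations of their deviations are given with the alternatives).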

Additional observations from a re-analysis of the deposited data

How the results depend on the processing

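Numbers of members called are given first as computed without the change. In Ly6Clo against Ly6Chi, 1 member was called in expression, 0 under median centring, 5 (4 higher) with only the groups compared and 9 (5 higher) under quantile normalisation. In Ly6Chi against MDP it was 68, and 24 under median centring. For introns of Ly6Chi against cMoP it was 1, then 3 with a minimum of 10 reads, 18 with TMM scaling of boundary and spliced reads apart, and 0 with a minimum of 50 reads, with only the groups compared, with the sum of spliced reads, or with the smaller boundary count doubled, the last chosen after seeing the data. For introns of Ly6Clo against Ly6Chi it was 0, and 4 with only the groups compared. For introns of Ly6Chi against MDP it was 0, then 2 with a minimum of 10 reads, 10 with only the groups compared and 1 with TMM apart. The cause of these moves was not tested.

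Under quantile normalisation 4 changes of named genes turned positive: in Ly6Chi against cMoP Rpl10 0.0526, not called, and Rps27 0.3125 and Rps9 0.3055, called higher, and in Ly6Chi against MDP Rps9 0.3291, called higher. Of the other values of named genes and introns, 2745 kept their side of the threshold, 146 lost and 88 gained a call, over all alternatives.

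Leaving out each replicate in turn gave 0 to 1 members in expression between cMoP and MDP, 46 to 75 between Ly6Chi and cMoP, 0 to 6 between Ly6Clo and Ly6Chi, 0 in the knockout, and 24 to 71 between Ly6Chi and MDP. For introns it gave 0 to 27 between cMoP and MDP, 0 to 22 between Ly6Chi and cMoP, 0 to 3 between Ly6Clo and Ly6Chi, 0 in the knockout, and 0 to 13 between Ly6Chi and MDP. Intron calls between cMoP and MDP and between Ly6Chi and cMoP were most frequent without cMoP replicate 1. There, more of all introns also had an unadjusted p under 0.05, and members had it no more often than all introns. Such a fit leaves 1 library of a group, and its calls are not read as a result about the members. The summed TPM moved from -0.76 to -0.70 (log2) between Ly6Chi and cMoP, and from 0.22 to 0.41 in the knockout.

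Same-numbered replicates had correlations of deviations of 0.06, -0.14 and -0.13 in expression and -0.01, -0.06 and -0.04 in retention, so the numbers were not taken as pairs. With the replicate block, 73 members were called in expression between Ly6Chi and cMoP and 0 in the knockout, and 0 introns in either comparison. With the numbers of the knockout crossed, chosen after seeing the data, the counts were 77 and 0. With 3 residual degrees of freedom and 1 library of MDP and Ly6Clo, the precision of single members is limited.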
